A study of Mus musculus with 20 samples.

Results

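The genes described here are the 4 stathmins (Stmn1, Stmn2, Stmn3 and Stmn4) and 6 genes of growth cone proteins (Gap43, Basp1, Marcks, Marcksl1, Gpm6a and Crmp1). They were taken by symbol from a list that was selected on measured values of these data, namely transcript levels and edited shares, so those values are given as a description. All 10 were found among the 25625 genes listed in all 4 expression tables. The editing tables listed 140 of their 92951 sites in these genes for the fixed embryo, 176 of 150516 for the fresh-frozen set, 987 of 263989 for E12.5 brain and 1110 of 375414 for E16.5 brain.

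Stathmins bind tubulin dimers and regulate the assembly of microtubules, and the neuronal members Stmn2, Stmn3 and Stmn4 are tethered to membranes of the growing axon. GAP-43, BASP1 and the MARCKS proteins sit at the inner face of the plasma membrane of the growth cone and control its lipids and actin. The mRNA of Gap43 is transported into axons and is a textbook case of control through the 3′ UTR. The antibody target, G3BP1, binds RNA and is known as the core protein of stress granules.

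The series used MAPIT-seq on sections of C57BL/6J wild-type mouse embryos and embryonic brains embedded in OCT. In this assay an antibody brings a fusion of the cytidine deaminase rAPOBEC1, protein A/G and the adenosine deaminase hADAR2 to its target, so that RNA near the target is read with A-to-G or C-to-T changes in poly(A)-selected libraries. Anti-G3BP1 libraries were set against rabbit IgG libraries, each made with 0.2% formaldehyde and a secondary antibody against rabbit, and IgG libraries against untreated libraries without fusion or antibody. The 20 libraries form 10 groups of 2. Sections of E10.5 embryos, labelled fixed in one set and fresh-frozen in another, each gave anti-G3BP1, IgG and untreated libraries. Untreated libraries of the fixed set carry that word in their titles, whereas their fixation field reads none. Brains of E12.5 and of E16.5 each gave anti-G3BP1 and IgG libraries. The labels name no animal for a replicate, and p-values therefore reflect the spread of these libraries alone, which could be technical.

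The content of the libraries was checked against marker genes before any comparison. In the fixed embryo the 4 heart markers summed to between 3020 and 4854 TPM (the length-scaled transcript share used in the expression tables) and the 6 neuron markers to between 459 and 985 TPM. The libraries labelled fresh-frozen E10.5 embryo did not hold this content. Their heart markers summed to between 6.53 and 25.8 TPM, their liver and yolk sac markers to between 4.94 and 11.1 TPM, with Afp at a median of 0 TPM, and their neuron markers to between 2860 and 4338 TPM. Those values lie beside the median of 4357 TPM of neuron markers in E16.5 brain and the 2571 to 3109 TPM in E12.5 brain. The single neuron markers differed in direction. Median Tubb3 was 2053 TPM in the fresh-frozen libraries, below 3579 TPM in E16.5 brain and 2321 TPM in E12.5 brain. The fresh-frozen medians of Dcx (322 against 221 TPM), Map2 (293 against 246 TPM) and Snap25 (119 against 102 TPM) were above those of E16.5 brain. So were those of Rbfox3 (129 against 74.6 TPM) and Syt1 (277 against 123 TPM). The fresh-frozen libraries are therefore called here by their label only. Mean depth at kept sites lay between 23.1 and 205 reads per library, and the lowest was the first IgG library of E12.5 brain.

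The sites at which these mRNAs were edited show the data most directly. For each gene and table the site with the largest gain in mean edited share with anti-G3BP1 over IgG was taken, among sites with at least 20 reads and a share under 50% in every library and both anti-G3BP1 libraries above both IgG libraries. The sequences below are the transcript strand, 21 bases with the edited base in capitals, on build GRCm38. They are shown as examples of the edited bases; how much of each gene's editing they hold is given after them.
Stmn2, coding sequence, chr3:8545670-8545690, plus strand: agcttctccaAagaagaaaga
Stmn2, the next base, coding sequence, chr3:8545671-8545691, plus strand: gcttctccaaAgaagaaagac
Stmn2, 3′ UTR, chr3:8561203-8561223, plus strand: ttttgcctgtAgtacaagcac
Gap43, 3′ UTR, chr16:42248568-42248588, minus strand: ggaatgaacaAaaaggttaaa
Basp1, 3′ UTR, chr15:25363901-25363921, minus strand: attgtctgaaAgtacatcatc
Gpm6a, 3′ UTR, chr8:55060437-55060457, plus strand: tgtagtaggtAgggggtatta
Gpm6a, 3′ UTR upstream of it, chr8:55059022-55059042, plus strand: tactcatcaaAgatgcgcagg
Groups without overlap at such a site follow from this rule. The second and the third Stmn2 site were chosen after their values were seen. All 7 are A-to-G sites, the change made by hADAR2, and the base before the edited adenosine is A or T in each. This holds for the 7 sites alone, which come from Stmn2, Gap43, Basp1 and Gpm6a only. In the fresh-frozen libraries the site with the most edited anti-G3BP1 reads was a C-to-T site in Marcks, Marcksl1 and Stmn4, where it held 2 reads in Stmn4. In Stmn3 a C-to-T and an A-to-G site there had 2 such reads each.

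In the fresh-frozen libraries the coding site of Stmn2 was edited in 37 of 236 and 36 of 298 reads with anti-G3BP1, that is 15.7% (95% Wilson interval 11.6 to 20.9%) and 12.1% (8.86 to 16.3%). In IgG libraries it was edited in 12 of 292 and 11 of 270 reads, or 4.11% (2.37 to 7.04%) and 4.07% (2.29 to 7.15%). Untreated libraries had 0 of 336 and 0 of 276 edited reads, which allows up to 0.893% and 1.09%. Because the site was chosen on these same values, it is no test that the intervals of anti-G3BP1 and IgG did not overlap. This and the following intervals cover counting error only, since reads without molecular identifiers are not independent molecules, and in both embryo tables and in E16.5 brain sites with 1 edited read were rarer than sites with 2 (2385 against 15659 in the first anti-G3BP1 library of the fixed set), so that a listed 0 may not be a count of 0.

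The same site was the most gained Stmn2 site in E16.5 brain, in separate libraries. There it was edited in 14 of 208 and 19 of 351 reads with anti-G3BP1 (6.73% and 5.41%), against 8 of 364 and 4 of 251 reads with IgG (2.2% and 1.59%). In E12.5 brain it stood at 2 of 36 and 19 of 55 reads with anti-G3BP1, against 0 of 16 and 1 of 55 reads with IgG. The 34.5% of the second anti-G3BP1 library (23.4 to 47.7%) stood apart from the 5.56% of the first (1.54 to 18.1%). The next adenosine followed the same order. It had 12 of 236 and 13 of 298 edited reads with anti-G3BP1 in the fresh-frozen libraries, against 1 of 292 and 2 of 270 with IgG and none of 336 and 276 untreated. The site in the 3′ UTR of Stmn2 had 24 of 294 and 20 of 497 edited reads with anti-G3BP1 there, against 2 of 370 and 0 of 266 with IgG and 0 of 547 and 0 of 682 untreated.

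The site in the 3′ UTR of Gap43 was edited in 6.67% and 4.76% of reads with anti-G3BP1 in the fresh-frozen libraries, against 1.66% and 0.382% with IgG and 0 of 256 and 0 of 351 reads untreated. In E16.5 brain it was edited in 6 of 269 and 2 of 365 reads with anti-G3BP1, against 0 of 464 and 0 of 352 with IgG. It was the most gained Gap43 site in both tables. A coding site of Gap43 that was added after its values were seen behaved otherwise. At chr16:42292069-42292089, minus strand, gcaaggcaggAgatgcacctt had 9 of 119 and 4 of 113 edited reads with anti-G3BP1, 5 of 130 and 6 of 143 with IgG, and 12 of 398 and 9 of 296 in untreated libraries. Anti-G3BP1 and IgG libraries overlapped there, and the untreated shares were 3.02% and 3.04%.

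The Basp1 site was edited in every fresh-frozen library. It had 7.28% and 11.5% edited reads with anti-G3BP1, 5.65% and 5.91% with IgG, and 0.697% and 1.83% untreated. In E16.5 brain it had 2.02% and 2.42% with anti-G3BP1, against 0.756% and 1.20% with IgG. Both IgG libraries of the fresh-frozen set thus lay above both untreated ones at this site.

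For Gpm6a, the site at chr8:55060437-55060457 was edited in 39 of 332 and 75 of 540 reads with anti-G3BP1 in the fresh-frozen libraries, against 24 of 403 and 24 of 358 with IgG and 0 of 299 and 0 of 330 untreated. In E16.5 brain it had 8.23% and 5.25% with anti-G3BP1, against 3.20% and 2.15% with IgG. The upstream site had 10 of 68 and 7 of 55 edited reads with anti-G3BP1 in the fresh-frozen libraries, against 0 of 36 and 0 of 63 with IgG, which allows up to 8.33% and 4.76%. In E16.5 brain its shares were 5.43% and 4.19% with anti-G3BP1, against 0.965% and 0.889% with IgG. The upstream site was the most gained in the fresh-frozen libraries and the other in E16.5 brain, and each is shown in both. The genes were listed with edited shares known, so neither set is a test of the other.

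**Figure D1:**
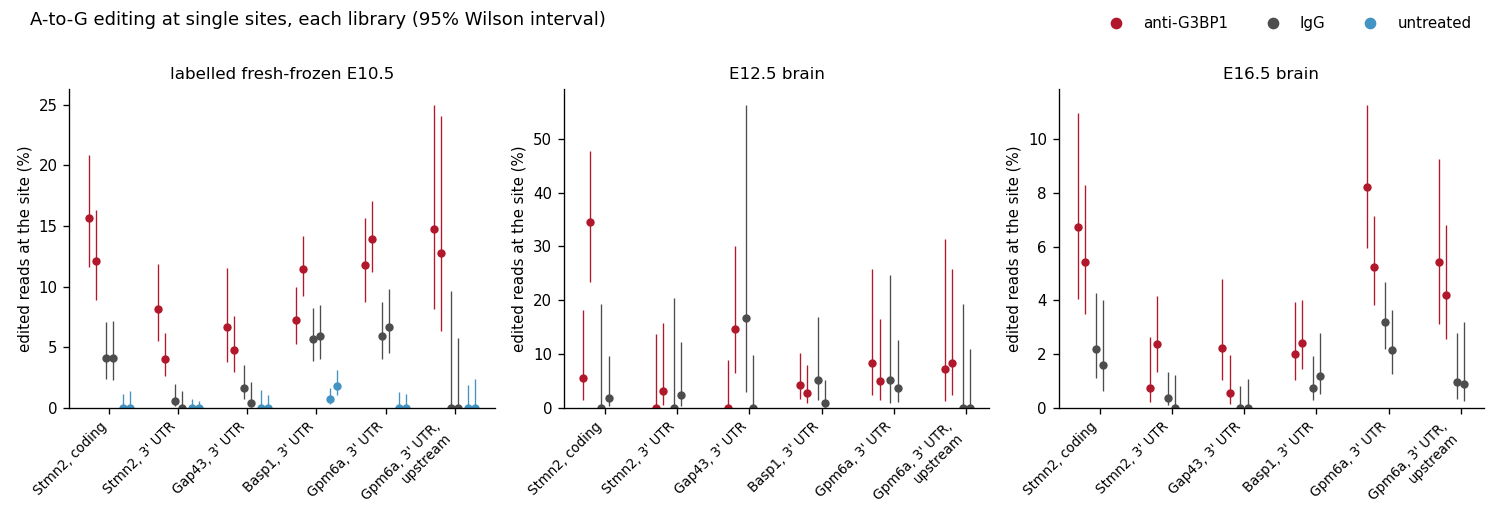
Percent of reads edited at 6 A-to-G sites (vertical axis, own scale in each panel) in the fresh-frozen, E12.5 brain and E16.5 brain libraries, with anti-G3BP1 left, IgG next to it and untreated libraries right where they exist; bars are 95% Wilson intervals. In the fresh-frozen and E16.5 panels each site is higher in both anti-G3BP1 libraries than in both IgG libraries, while in E12.5 brain the intervals are wide and the second anti-G3BP1 library of Stmn2 stands at 34.5%.

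How far each mRNA rests on 1 site differed. In libraries labelled fresh-frozen the printed Basp1 site held 106 of the 108 edited reads that the 2 anti-G3BP1 libraries had in Basp1, and a 3′ UTR site of Stmn1 held 18 of 25. The first Stmn2 site held 73 of 164 edited reads, the Gap43 site 27 of 59, and the first Gpm6a site 114 of 318. In E16.5 brain, where far more sites were listed, the leading site held 33 of 135 edited reads in Stmn2, 71 of 412 in Gpm6a, 22 of 278 in Basp1, 8 of 68 in Gap43 and 15 of 358 in Marcks. Without its leading site, Basp1 in the fresh-frozen libraries had 0% and 0.545% edited reads with anti-G3BP1, against 0.593% and 1.10% with IgG, so both anti-G3BP1 libraries were then the lower ones. Stmn1 there had 0.855% and 2.99% with anti-G3BP1, against 0.851% and 3.01% with IgG, and overlapped. Gap43 without its site had 1.65% and 1.64%, against 0.576% and 0.733%, and Gpm6a 2.74% and 3.21%, against 0.762% and 0.929%, still apart.

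At E16.5, Basp1 without its leading site had 0.300% and 0.221% with anti-G3BP1, against 0.196% and 0.148% with IgG, and Gap43 0.113% and 0.114%, against 0.0609% and 0.0330%. Marcksl1, with 0.144% and 0.117% against 0.115% and 0.118%, overlapped without its own. Without the pair of adjacent coding sites, the Stmn2 share in the fresh-frozen libraries was 2.02% and 1.91% with anti-G3BP1, against 0.260% and 0.0650% with IgG. In E16.5 brain it was 0.0919% and 0.135% with anti-G3BP1, against 0.0749% and 0.0505% with IgG, and in E12.5 brain 0.0398% and 0.132% against 0% and 0.117%.

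The genes were abundant transcripts, and most were higher at later stages. The 10 genes together made up 0.509 to 0.575% of all TPM in the fixed E10.5 embryo, 0.710 to 0.829% in E12.5 brain and 1.35 to 1.42% in E16.5 brain. Tables were normalized separately and stage goes with tissue, so these levels are a description without a test. In sections, fewer cells of a type and less RNA per cell cannot be told apart. Neuron markers were likewise higher at later stages, as given above. Markers of other cell types moved too. In E16.5 brain, against E12.5 brain, their sums had medians of 728 against 2754 TPM for neural progenitors and 265 against 44.0 TPM for astroglia. The endothelial sum was 306 against 86.8 TPM, with Cldn5 at 250 against 49.8 TPM. Pecam1 (16.9 against 13.3 TPM), Cdh5 (22.3 against 15.3 TPM) and Kdr (15.2 against 9.79 TPM) differed less. The red blood cell sum was 1471 against 6918 TPM, but its globins went both ways. Hbb-y (14.7 against 5096 TPM), Hbb-bh1 (0 against 884 TPM) and Hba-a1 (571 against 827 TPM) were lower. Hbb-bs (735 against 61.2 TPM) and Hbb-bt (152 against 84.0 TPM) were higher. The part of these markers in the levels was not tested.

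Among the stathmins, Stmn1, which is also expressed in dividing cells, had the lowest ratio of levels between E16.5 brain and fixed embryos. Its mean was 712 ± 48.8 TPM in fixed embryos (SD, n = 6), 1007 ± 102 TPM in E12.5 brain and 1536 ± 98.3 TPM in E16.5 brain (n = 4 each). The ratio was higher for the neuronal stathmins. Stmn2 averaged 71.2 ± 24.4, 242 ± 11.3 and 665 ± 10.1 TPM in these 3 sets, Stmn3 118 ± 36.9, 800 ± 120 and 1880 ± 47.7 TPM, and Stmn4 33.5 ± 9.83, 327 ± 39.7 and 972 ± 17.3 TPM. Means and SDs of levels pool the antibody and untreated groups of a set, and the brain sets have no untreated libraries. Stmn2 in fixed embryos averaged 58.4 TPM with anti-G3BP1, 59.1 TPM with IgG and 96.0 TPM untreated. No library of a later set fell within the range of an earlier one for any of the 4. The fresh-frozen libraries had more Stmn2 than E16.5 brain (872 ± 118 TPM, n = 6), but less Stmn1 (749 ± 55.8 TPM), Stmn3 (1446 ± 199 TPM) and Stmn4 (470 ± 79.3 TPM).

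Gap43 averaged 267 ± 61.9 TPM in fixed embryos, 436 ± 30.2 TPM in E12.5 brain and 1360 ± 36.2 TPM in E16.5 brain. Basp1 averaged 736 ± 67.7, 1190 ± 161 and 2101 ± 116 TPM. In the fresh-frozen libraries Gap43 ranged between 1228 and 2109 TPM, overlapping E16.5 brain, and Basp1 between 2620 and 3091 TPM, above it. For both genes the 3 staged sets did not overlap.

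The levels of the MARCKS genes lay closer together over the 3 staged sets. Marcks, a substrate of protein kinase C, averaged 532 ± 49.95, 683 ± 67.0 and 823 ± 65.9 TPM, and its E12.5 and E16.5 libraries overlapped. Marcksl1 averaged 2833 ± 115 TPM in fixed embryos, 2453 ± 158 TPM in E12.5 brain and 2632 ± 132 TPM in E16.5 brain, with the brain stages overlapping. It was the most abundant of the 10 in these 3 sets and at 1109 ± 80.4 TPM in the fresh-frozen libraries, the lowest of its 4 levels.

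Gpm6a, a neuronal membrane glycoprotein that promotes filopodia, had the widest range of levels. It averaged 3.65 ± 1.14 TPM in fixed embryos, 234 ± 55.8 TPM in E12.5 brain, 1131 ± 34.2 TPM in E16.5 brain and 695 ± 85.1 TPM in the fresh-frozen libraries. Crmp1, a collapsin response mediator that acts downstream of semaphorin 3A, averaged 89.1 ± 18.1, 256 ± 11.8 and 623 ± 21.7 TPM in the 3 staged sets and 596 ± 134 TPM in the fresh-frozen libraries.

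**Figure D2:**
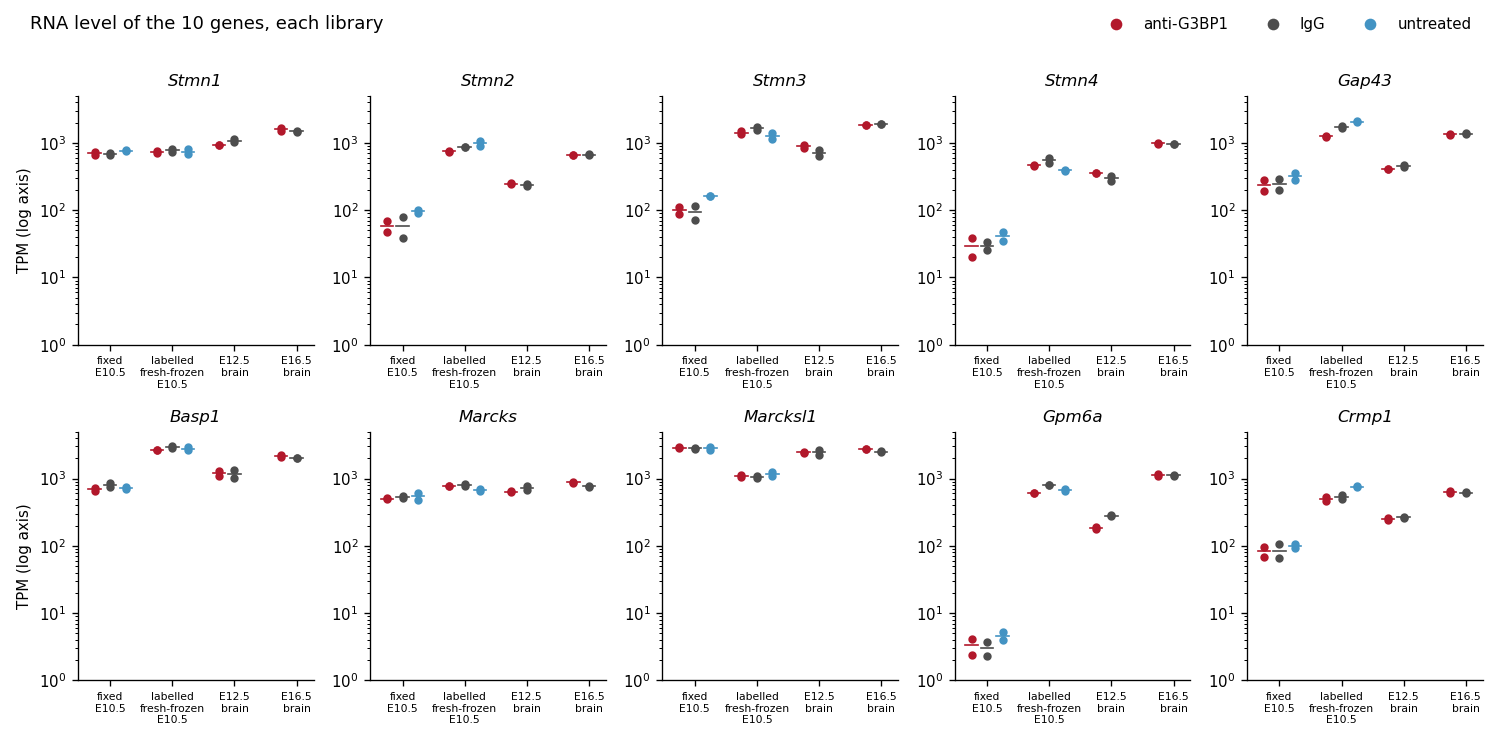
TPM of each gene (log axis) in every library of the fixed E10.5, fresh-frozen, E12.5 brain and E16.5 brain sets; points are libraries, short lines group means, with anti-G3BP1 left, IgG in the middle and untreated right. Gpm6a spans 2.31 to 1173 TPM, whereas Marcksl1 stays between 1036 and 2984 TPM.

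Of the 10 genes, 8 were higher in all 4 libraries of E16.5 brain than in all 4 of E12.5 brain, all but Marcks and Marcksl1, as were 31.2% of the 20162 genes compared. With a mean at least 2 times as high there were 6, against 18.5% of genes. E12.5 brain lay above the fixed embryo in all libraries for 9 genes, against 23.3% of genes, and below it for Marcksl1, against 14% of genes. The ratio of E16.5 to E12.5 means was 4.83 for Gpm6a, 3.12 for Gap43, 2.97 for Stmn4, 2.74 for Stmn2, 2.43 for Crmp1 and 2.35 for Stmn3, with a median of 2.39 over the 10 and, with 1 TPM added to both means, 1.09 over all genes. The fresh-frozen libraries lay above the fixed embryo for 8 genes (39.5% of genes) and below it for Marcksl1 (16.6%), and above E16.5 brain for Basp1 and Stmn2 (28.1%) and below it for 5 (15.2%). These genes were listed with such levels in view, so nothing is read from the counts.

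Anti-G3BP1 was set against IgG to find RNA near G3BP1. Within the fresh-frozen set editing of Stmn2 and Gpm6a rose, and in E16.5 brain editing of Stmn2, Gap43, Gpm6a, Crmp1, Basp1 and Marcks rose, at an adjusted p under 0.05 in a quasi-binomial model over all genes. No gene passed in E12.5 brain and none of these genes in the fixed embryo. Editing over all genes also moved up, by a median of 0.91 on the log2 odds scale in the fresh-frozen libraries, 0.65 in E16.5 brain, 0.61 in E12.5 brain and 0.33 in the fixed embryo. The changes below are therefore to be set beside these medians. Against the median change in place of no change, no gene of the 10 passed in any of the 4 comparisons, and the E16.5 changes of Basp1 and Marcks lay below the median, at -0.077 and -0.11.

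For Stmn2 in the fresh-frozen libraries, 4.09% and 3.39% of reads over its 18 sites were edited with anti-G3BP1, against 0.8% and 0.673% with IgG and 0.304% and 0.0314% untreated. The anti-G3BP1 libraries stood apart from all others. The log2 change was 2.35 ± 0.41 (SE) with an adjusted p of 0.0022. In E16.5 brain the shares over 120 sites were 0.159% and 0.199% with anti-G3BP1, against 0.0922% and 0.0673% with IgG, a change of 1.16 ± 0.29 with an adjusted p of 0.0035. In E12.5 brain they were 0.155% and 1.08% with anti-G3BP1, against 0% and 0.141% with IgG, a change of 2.64 ± 1.03 that did not pass (adjusted p = 0.83). Of the 42 edited reads in the second anti-G3BP1 library, 37 lay at the pair of adjacent coding sites.

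The other stathmins did not pass in any table. Stmn1 had 3.52% and 1.75% edited reads over 8 sites with anti-G3BP1 in the fresh-frozen libraries, against 0.6% and 1.1% with IgG and 0% and 0.431% untreated. In E16.5 brain it had 0.172% and 0.194%, against 0.132% and 0.111%, without overlap in either table, although the fresh-frozen groups overlapped without the leading 3′ UTR site. The Stmn1 values are uncertain where reads could map to more than 1 place. Stmn4 in E16.5 brain had 0.153% and 0.194% with anti-G3BP1, against 0.0784% and 0.0949% with IgG (log2 change 1.05 ± 0.42, adjusted p = 0.12). Stmn3 overlapped between the groups in all 4 tables, with 0.248% and 0.164% against 0.115% and 0.193% in E16.5 brain.

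Gap43 in E16.5 brain had 0.142% and 0.119% edited reads over 93 sites with anti-G3BP1, against 0.0601% and 0.0325% with IgG. Both anti-G3BP1 libraries were higher, and the change was 1.37 ± 0.43 with an adjusted p of 0.027. In the fresh-frozen libraries its shares were 2.38% and 2.44% with anti-G3BP1, against 0.824% and 0.672% with IgG and 0.494% and 0.558% untreated. These did not overlap, but the change of 1.69 ± 0.49 did not pass (adjusted p = 0.078). In the fixed embryo Gap43 had 0% and 1.09% with anti-G3BP1 and 0.342% and 0.419% with IgG, and in E12.5 brain 4 edited reads in both anti-G3BP1 libraries together.

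Basp1 in E16.5 brain had 0.318% and 0.241% with anti-G3BP1, against 0.201% and 0.157% with IgG (0.58 ± 0.19, adjusted p = 0.043). Marcks had 0.25% and 0.268%, against 0.175% and 0.185% (0.54 ± 0.17, adjusted p = 0.035). In both genes the groups were apart but the change was no larger than the median of all genes. Among fresh-frozen libraries Basp1 had 4.56% and 7.44% with anti-G3BP1, 3.41% and 4.07% with IgG and 0.412% and 1.33% untreated, the highest IgG shares of the 10. As given above, without its leading site Basp1 was lower there with anti-G3BP1 than with IgG. Marcks there had 1.27% and 1.05% with anti-G3BP1, against 0.395% and 0.467% with IgG, and 0.393% and 0.317% untreated. Neither passed (adjusted p = 0.34 for Basp1 and 0.14 for Marcks).

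Marcksl1, the most abundant of the 10 in the staged sets, did not pass in any table. In E16.5 brain its shares were 0.159% and 0.132% with anti-G3BP1, against 0.118% and 0.124% with IgG, which were apart with the leading site but did not pass (0.24 ± 0.25, adjusted p = 0.62). In the fresh-frozen libraries they were 1.24% and 0.111%, against 0.599% and 0.69%, with 7 of its 11 edited reads at 1 coding site. The kinds of edit differed in E16.5 brain. Its A-to-G share was 0.266% and 0.219% with anti-G3BP1, against 0.116% and 0.125% with IgG, while its C-to-T share was 0.0973% and 0.0790%, against 0.119% and 0.123%. Marcksl1 has a named pseudogene copy, Marcksl1-ps4, so reads may be split between them.

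Gpm6a had both anti-G3BP1 libraries above both IgG libraries in all 3 tables that listed it. In libraries labelled fresh-frozen 119 of 3249 and 199 of 4407 reads were edited with anti-G3BP1 (3.66% and 4.52%), against 50 of 3817 and 55 of 3694 with IgG (1.31% and 1.49%), and 16 of 7572 and 13 of 7038 untreated (0.211% and 0.185%). The change of 1.61 ± 0.25 had an adjusted p of 0.00076. In E16.5 brain the shares were 0.338% and 0.344% with anti-G3BP1, against 0.212% and 0.175% with IgG (0.80 ± 0.17, adjusted p = 0.00024). The E12.5 brain shares were 0.448% and 0.398% with anti-G3BP1, against 0.0483% and 0.217% with IgG, and the change of 1.26 ± 0.73 did not pass. The fixed embryo listed no Gpm6a site.

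Crmp1 in E16.5 brain had 0.154% and 0.144% edited reads with anti-G3BP1, against 0.0951% and 0.0671% with IgG (0.82 ± 0.27, adjusted p = 0.041). In the fresh-frozen libraries it had 2 and 5 edited reads with anti-G3BP1, against 0 of 453 and 0 of 602 reads with IgG, which allows up to 0.662% and 0.498%. The untreated libraries there had 16 and 17 edited reads, or 0.384% and 0.440%, so that its anti-G3BP1 shares of 0.257% and 0.571% lay on either side of the untreated ones.

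**Figure D3:**
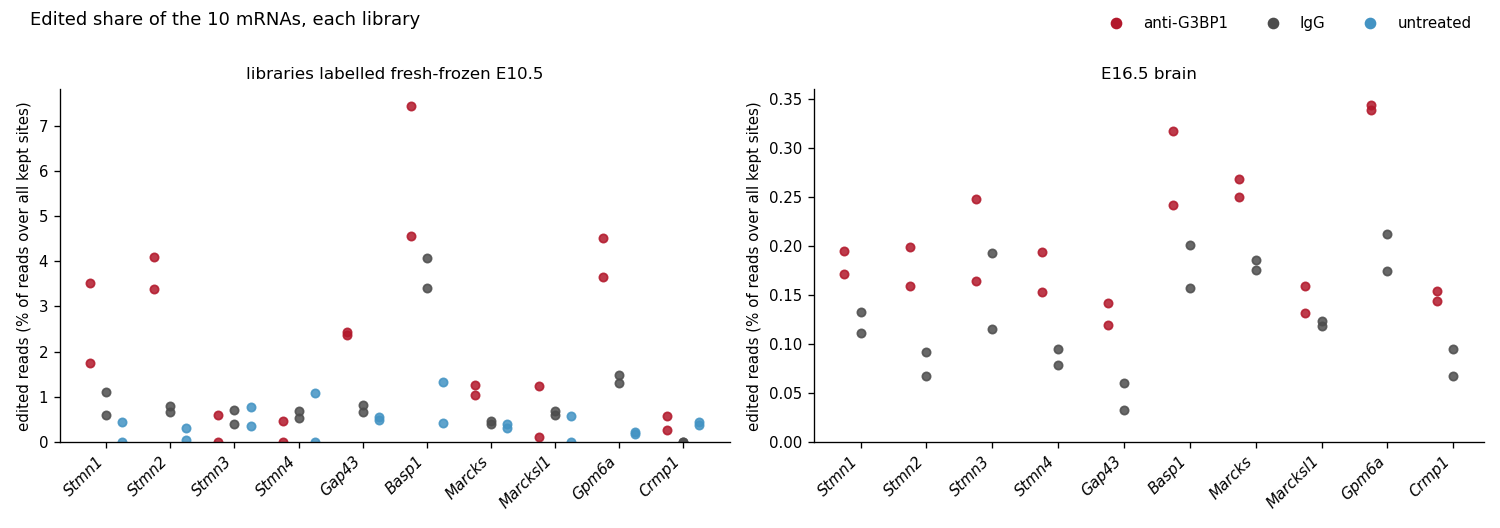
Percent of reads edited over all kept sites of each gene (vertical axis) in every fresh-frozen library (left) and every E16.5 brain library (right), with anti-G3BP1 left, IgG in the middle and untreated right. Both anti-G3BP1 libraries of Stmn2, Gap43 and Gpm6a lie above both IgG libraries in both panels, Basp1 has high IgG shares of 3.41% and 4.07% on the left, and Stmn3 overlaps in both.

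By count, 2 of 10 genes were called higher in the fresh-frozen libraries, where 1.44% of 8037 genes were, and 6 of 10 in E16.5 brain, where 6.75% of 11741 were. None was called lower in any editing comparison, where 0% of all genes were. In E12.5 brain none of 10 was called, with 0% of 5568 genes by the quasi-binomial model, 1 by edgeR and 171 at an unadjusted p under 0.05. In the fixed embryo none of 8 tested was called, with 0.0147% of 6794 genes called, 0 by edgeR and 160 at an unadjusted p under 0.05; Stmn4 and Gpm6a had no site that could be tested. Both anti-G3BP1 libraries lay above both IgG libraries in 7 of 10 genes in the fresh-frozen libraries (46.4% of all genes), 6 of 10 in E12.5 brain (27.6%), 9 of 10 in E16.5 brain (42.1%) and 0 of 8 in the fixed embryo (19.3%). Both lay below in 1 of 10 genes, Stmn4, in the fresh-frozen libraries (4.53% of all genes) and in none in E12.5 brain (3.41%), E16.5 brain (5.4%) or the fixed embryo (11.9%). Since the list was drawn up with edited shares known, nothing is read from these counts. The calls also rest on few libraries. Without the first or the second IgG library of E16.5 brain, or with reads thinned to the shallowest library, none of the 6 E16.5 calls remained, and leaving out either anti-G3BP1 library or the first IgG library removed both fresh-frozen calls (without that IgG library, adjusted p = 0.073 for Stmn2 and 0.058 for Gpm6a), while all these changes kept their sign. Without the first anti-G3BP1 library of E16.5 brain 2 of the 6 calls remained (Stmn2 and Gpm6a), and without the second 3 (Gap43, Basp1 and Gpm6a).

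**Figure D4:**
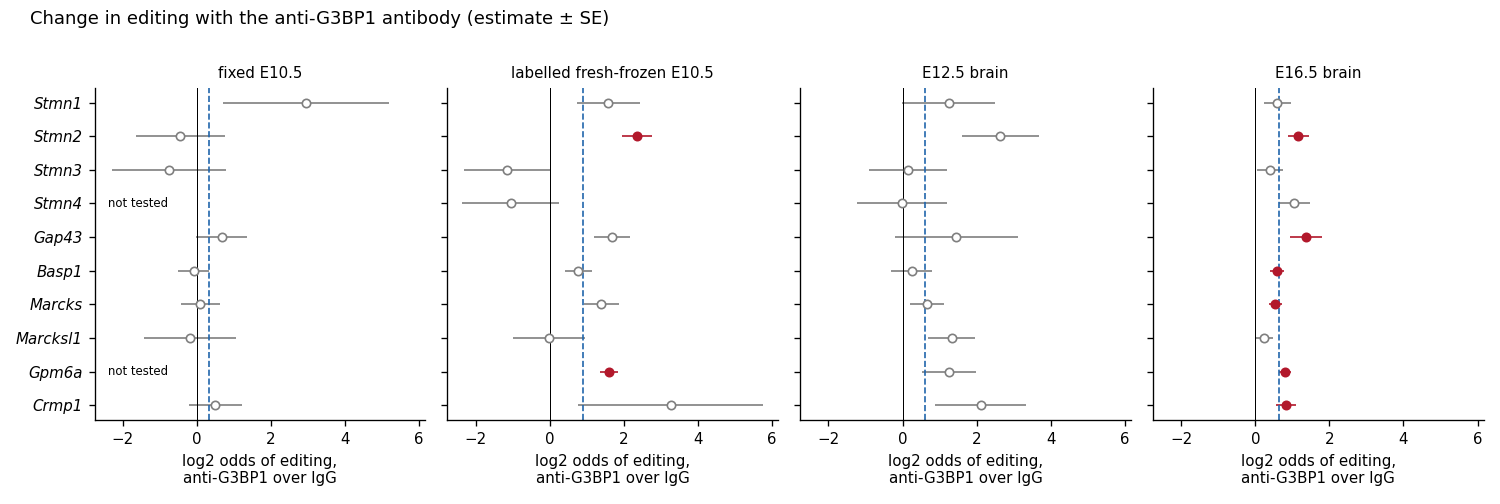
Log2 odds of editing with anti-G3BP1 over IgG for each gene in the 4 sets (points with SE bars; filled red points have an adjusted p under 0.05; the dashed line is the median of all genes tested). In E16.5 brain Stmn2 and Gap43 lie right of the median of 0.65 and Basp1 and Marcks left of it.

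The difference between E16.5 and E12.5 brain was tested over sites present in both, and between the fresh-frozen and fixed sets in the same way. None of the 10 genes passed in the first, where 0 of 2804 genes did, and Marcks alone could be tested in the second, where 0 of 871 did. For Stmn2 the difference was -2.16 ± 1.45 on the log2 scale (adjusted p = 0.996), and for Gpm6a -0.54 ± 0.66.

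IgG was set against untreated libraries to measure editing without an antibody to G3BP1. The labels give 0.2% formaldehyde for IgG libraries but no value for untreated libraries of either set. Fixation may therefore differ here besides fusion and antibody. None of 10 genes was called in the fresh-frozen libraries, where 0% of 7856 genes were called by the quasi-binomial model, 65 by edgeR and 540 at an unadjusted p under 0.05. Gpm6a had the smallest adjusted p of the 10, with 1.31% and 1.49% edited with IgG, against 0.211% and 0.185% untreated (2.82 ± 0.43, adjusted p = 0.063). Stmn2 (2.18 ± 0.64) and Basp1 (2.10 ± 0.52) also lay above the untreated libraries without passing. Crmp1 was the reverse, with no edited read in either IgG library. Both IgG libraries lay above both untreated ones in 7 of the 10 (31.5% of all genes) and below in 1 (6.19%). In the fixed embryo none of 7 tested genes was called, against 0% of 5596, with 0 by edgeR and 103 at an unadjusted p under 0.05, and in 5 of the 7 the IgG and untreated libraries overlapped, with Gap43 above (17.8% of all genes) and Crmp1 below (14.3%).

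Over all their sites, the 10 mRNAs in the fresh-frozen libraries had a mean A-to-G share of 3.86 ± 0.12% with anti-G3BP1, 1.46 ± 0.04% with IgG and 0.316 ± 0.039% untreated (SD, n = 2 each). Their C-to-T share was 0.937 ± 0.036%, 0.359 ± 0.010% and 0.353 ± 0.037%. In the 10 mRNAs IgG thus exceeded untreated libraries by more than the SD in A-to-G editing but not in C-to-T editing. All other genes together had A-to-G shares of 1.70 ± 0.03%, 0.758 ± 0.046% and 0.364 ± 0.015%. Their C-to-T shares were 0.878 ± 0.006% with anti-G3BP1, 0.564 ± 0.004% with IgG and 0.371 ± 0.019% untreated, so that over other genes IgG was above untreated in C-to-T editing too. Of the 275 and 379 edited A-to-G reads there with anti-G3BP1 in the 10, Gpm6a held 271, Stmn2 157 and Basp1 106. Gpm6a, Basp1, Stmn2, Gap43 and Stmn1 had mean A-to-G shares above the 1.70% of other genes. Marcks (1.06%) and Crmp1 (0.575%) lay below it. The means of Stmn3 (1.33%, SD 1.89%) and Marcksl1 (0.741%, SD 1.05%) were also lower. They rest on 2 of 177 reads at 1 site and 2 of 314 reads at 2 sites, too few to place them. All 3 kept sites of Stmn4 there were C-to-T sites. In E16.5 brain the A-to-G share of the 10 was 0.357 ± 0.019% with anti-G3BP1, against 0.184 ± 0.003% with IgG, a ratio of 1.94, and of all other genes 0.543 ± 0.028%, against 0.286 ± 0.005%, a ratio of 1.90. The ratio of anti-G3BP1 to IgG in A-to-G editing was 2.64 for the 10 in the fresh-frozen libraries, 2.76 in E12.5 brain and 1.20 in the fixed embryo, beside 2.24, 2.34 and 1.33 for all other genes. In the second anti-G3BP1 library of E12.5 brain, 37 of the 123 edited A-to-G reads lay at the pair of adjacent Stmn2 sites. The ratio without that pair was not computed.

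By gene, the kinds of edit were unequal. In Stmn2 of E16.5 brain the A-to-G share was 0.273% and 0.417% with anti-G3BP1, against 0.0956% and 0.0652% with IgG, and the C-to-T share 0.106% and 0.0964%, against 0.0906% and 0.0683%. Gpm6a had A-to-G shares of 0.624% and 0.517%, against 0.234% and 0.194%, while its C-to-T shares of 0.196% and 0.259%, against 0.201% and 0.165%, overlapped. In Marcks the C-to-T share was apart, with 0.216% and 0.212% against 0.143% and 0.136%, and its leading site was a C-to-T site, chr10:37135233-37135253, minus strand, ttaactgtgaCtattgtataa. With A-to-G sites alone 2 of the 6 E16.5 genes passed, and with C-to-T sites alone none.

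By region, the 3′ UTRs of the 10 mRNAs in E16.5 brain held 0.215% and 0.212% edited reads with anti-G3BP1, against 0.124% and 0.118% with IgG. Their coding sequences held 0.240% and 0.222%, against 0.170% and 0.152%. Their 5′ UTRs held 0.438% and 0.266% with anti-G3BP1, against 0.354% and 0.184% with IgG, and overlapped. Stmn2 was edited more in the coding sequence (0.540% and 0.683% with anti-G3BP1, 0.218% and 0.145% with IgG) than in the 3′ UTR (0.0992% and 0.134%, against 0.0723% and 0.0474%). Of its 63 edited coding reads with anti-G3BP1, 49 lay at the pair of adjacent sites. Without that pair its coding share was 0.0821% and 0.208% with anti-G3BP1, against 0.0878% and 0.0231% with IgG, which overlapped each other and the 3′ UTR shares. Gap43 was the other way round, with 0.249% and 0.153% in the 3′ UTR and 0.0901% and 0.103% in the coding sequence with anti-G3BP1, against 0.0674% and 0.0224% and 0.0563% and 0.0382% with IgG. Most kept Gpm6a sites, 142 of 171, lay in the 3′ UTR.

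Edited shares differed with the base before the edited one. Within the fresh-frozen set A-to-G sites preceded by A were edited in 4.86% and 5.15% of reads with anti-G3BP1, against 1.78% and 1.90% with IgG, and sites preceded by T in 4.51% and 4.68%, against 1.505% and 1.51%. Sites preceded by G had 2.03% and 1.25%, against 1.12% and 1.56%, and overlapped. Single sites weighed heavily in this set. Of the 144 and 203 edited reads after A with anti-G3BP1, the printed Basp1 site held 106 and the first Stmn2 site 73. Of the 104 and 152 after T, the first Gpm6a site held 114. Shares without these sites were not computed. In E16.5 brain A-to-G sites preceded by G were apart, with 0.420% and 0.348% with anti-G3BP1, against 0.290% and 0.263% with IgG. Their anti-G3BP1 shares were near those of sites preceded by A (0.422% and 0.395%, against 0.120% and 0.154%) and below those preceded by T (0.521% and 0.467%, against 0.204% and 0.192%), while sites preceded by C had 0.0813% and 0.173%, against 0.0559% and 0.0490%. Among C-to-T sites of the fresh-frozen set, those preceded by A had 1.25% and 1.31% with anti-G3BP1, against 0.370% and 0.416% with IgG, and those preceded by C had 0.494% and 0.525%, against 0.646% and 0.308%. In E16.5 brain C-to-T sites preceded by A had 0.268% and 0.244% with anti-G3BP1, against 0.153% and 0.163% with IgG, and those preceded by C had 0.0564% and 0.0831%, against 0.0910% and 0.0413%. C-to-T sites preceded by T overlapped in the fresh-frozen set, with 2.28% and 0.383% with anti-G3BP1, against 0% and 0.467% with IgG. In E16.5 brain they had 0.130% and 0.155%, against 0.121% and 0.119%. C-to-T sites preceded by G had 0.305% and 1.04%, against 0.244% and 0.302%, in the fresh-frozen set. In E16.5 brain they had 0.114% and 0.0964%, against 0.102% and 0.0621%, and overlapped. Both ADAR2 and APOBEC1 are known to favour A or U before their target base. Whether the shares here follow these preferences was not tested.

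Transcript levels of the 10 genes passed no test between antibody groups, which does not show that they were alike. With limma on log2(TPM + 1), none of 10 was called in the fixed embryo, fresh-frozen, E12.5 or E16.5 comparisons of anti-G3BP1 with IgG. Of all genes 0%, 0%, 0% and 0.0108% were called higher and 0% lower in each, with 2085, 2745, 2452 and 1841 genes at an unadjusted p under 0.05. In the fresh-frozen libraries Gap43 was at 1266 and 1228 TPM with anti-G3BP1, against 1685 and 1808 TPM with IgG and 2020 and 2109 TPM untreated, without overlap (log2 change -0.49 ± 0.11, adjusted p = 0.26). Gpm6a was at 607 and 620 TPM, against 797 and 795 TPM with IgG (-0.38 ± 0.10, adjusted p = 0.28). In 6 of the 10 genes both anti-G3BP1 libraries were lower there, as in 21.8% of all genes.

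Gpm6a in E12.5 brain had 192 and 179 TPM with anti-G3BP1, against 280 and 284 TPM with IgG, which did not overlap but did not pass (-0.60 ± 0.12, adjusted p = 0.21). In E16.5 brain its 1173 and 1097 TPM with anti-G3BP1 overlapped 1144 and 1109 TPM with IgG, and the difference between the stages in TPM was not tested. Between IgG and untreated libraries none of the 10 was called in the fixed set, where 0% of genes were, with 2022 at an unadjusted p under 0.05. None was called in the fresh-frozen set either, where 2.81% of genes were called higher and 3.11% lower. There Crmp1 had 491 and 566 TPM with IgG, against 745 and 779 TPM untreated (-0.53 ± 0.14, adjusted p = 0.091).

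The 3 related gene lists given here were read with the same model, also drawn up with earlier results known. In E16.5 brain, where 6.75% of genes were called higher, 2 of 6 collapsin response mediators and proteolipid relatives rose, namely Gpm6b (0.338% and 0.307% with anti-G3BP1, against 0.154% and 0.253% with IgG) and Dpysl5 (0.198% and 0.149%, against 0.0849% and 0.105%).

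Of 14 growth cone actin and adhesion genes 3 rose, the adhesion molecule Ncam1, the spectrin-binding protein Add2 and the membrane protein Palm. Of 6 RNA-binding proteins known to bind Gap43 or Stmn2 mRNA, 3 rose: Elavl4, which stabilizes Gap43 mRNA, Tardbp, which controls splicing of human STMN2, and Elavl2. Elavl4 had 0.359% and 0.551%, against 0.182% and 0.205% (1.30 ± 0.28, adjusted p = 0.00046). The medians of the 3 lists were 0.69, 0.73 and 0.89, beside 0.65 for all genes, and 0.70 for the 10 genes.

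No member of these lists was called in the fresh-frozen, E12.5 or fixed comparisons. Among fresh-frozen libraries, where the median of all genes was 0.91, the medians of the 3 lists were 0.74, 0.73 and 0.87, and that of the 10 genes was 1.48.

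The genes whose levels were most like each of the 10 were found by Pearson correlation of log2(TPM + 1) over the 10 group means among 15771 genes, as a description. The groups share stage, tissue and table, so these values are not independent. Stmn2 was most like Snap25 (r = 0.998), which was also among the neuron markers, then Ago4 and Rab33a. Stmn3 was most like Syt4, Uchl1 and Atcay, and Gpm6a most like Syt4, Ptpro and Tmem130. Stmn4 was closest to Atp9a, Syp and Tmem50a, and Crmp1 to Tbc1d30, Camsap3 and Kidins220. Gap43 was closest to Rab30, Pcdha9 and Gm1043, and Basp1 to Armc8, Pcdhga9 and Frrs1l.

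The other 3 genes were Marcksl1, Stmn1 and Marcks. Marcksl1 was most like Ptges3, Tmsb10 and Gpx4, Stmn1 most like Tmem181a, Selenot and Fam3c (r = 0.98), and Marcks most like Gm49077, Camk2n1 and Lmbrd2. Among the 10 themselves, Gpm6a and Stmn3 had r = 0.99 and Crmp1 and Stmn2 r = 0.99, while Marcksl1 ran against Basp1 (r = -0.79), Gap43 (r = -0.72) and Stmn2 (r = -0.71).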

How the data were processed

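MAPIT-seq libraries of 10 groups were used as the labels name them. Per the file headers, the authors' editing tables give the count of covering reads and of edited reads at each site in each library; a count of 1 edited read is rarer than 2 in the embryo tables and in E16.5 brain. Expression is in TPM as the authors deposited it. The submitters' processing notes name GATK 4.5.0.0, featureCounts 2.0.1 of Subread, HISAT2 2.2.1, BWA 0.7.17 and Picard 3.1.1, and the builds mm10 and GRCm38, without saying which step each served.

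Sites with at least 10 reads in every library of a table were summed per gene, and each gene reaching 50 reads per library went into a quasi-binomial model whose dispersion was moderated along a trend with limma 3.58.1, after 0.25 reads were added. In 4 of the 6 editing comparisons, all but those of the fresh-frozen libraries, the spread came wholly from the trend. TPM was tested with limma on log2(TPM + 1) within each table, for genes with at least 1 TPM in 2 libraries. P-values are two-sided, adjusted by Benjamini-Hochberg over all genes; an adjusted p under 0.05 was called. Regions and gene positions are from GENCODE M21.

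The 10 genes, the related lists and the markers were chosen with earlier results of these data known. The text names all 10 in each comparison, up to 4 called genes of a related list with the smallest p, the 3 most alike genes and the sites by the stated rule. 1 further related list is not reported here. The tests were checked on simulated data, where they recovered only a minority of 2-fold changes in every comparison and none in most TPM comparisons and in the editing of IgG over untreated in the fresh-frozen set. A missing call is therefore no sign of equal values. Same-numbered replicates did not deviate together (r between -0.034 and 7.5e-05 over 17249 to 20934 genes), and the fits have no block. The editing fits tested fewer genes, so this check does not settle whether edited shares need a block. Counts with a replicate block are given below. Alternatives were other read minimums, A-to-G or C-to-T sites alone, leaving out sites at 50% or above, sites under 1 gene, thinned reads, edgeR 4.0.16, a test against the median change, a replicate block, other TPM settings and each library left out.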

Additional observations from a re-analysis of the deposited data

How the results depend on the processing

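Depth was 23.1 to 205 reads per site, with 2 libraries a group. Of all genes called with anti-G3BP1 over IgG, 1 in the fixed embryo became 0 with C-to-T sites only, without sites edited in 50% of reads or more, with thinned reads, with edgeR and with a replicate block, and 2 against the median change. The 116 of the fresh-frozen libraries became 298 at a minimum of 5 reads per site, 300 at 200 reads per gene, 75 with A-to-G sites, 0 with C-to-T sites, 0 with thinned reads, 334 with edgeR, 0 against the median change and 189 with the replicate block. The 0 of E12.5 brain became 1 at a minimum of 20 reads per site and 1 with edgeR. The 792 of E16.5 brain became 510 with A-to-G sites, 16 with C-to-T sites, 0 with thinned reads and 8 against the median change. For IgG over untreated in the fresh-frozen libraries, 0 became 2 at 5 reads per site, 73 at 200 reads per gene, 65 with edgeR and 1 with the replicate block. With TPM, the 0 of E12.5 brain became 1 with the replicate block, the 2 of E16.5 brain 1 without a filter and 0 without a trend, and the 1320 of IgG over untreated in the fresh-frozen libraries 780 at a pseudocount of 0.1, 686 without a filter, 0 without a trend and 0 with the block. The block changed no other count by more than 1.5 times. With each library left out in turn, the counts lay between 0 and 1 in the fixed embryo, 0 and 17 in the fresh-frozen libraries, 0 and 38 at E12.5, 10 and 600 at E16.5, 0 and 3 for IgG over untreated in the fixed set, 0 and 3 for TPM in E16.5 brain and 0 and 0 for TPM of IgG over untreated in the fresh-frozen set.

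Of the 10 genes, the 2 calls in the fresh-frozen libraries became 0 with C-to-T sites, with thinned reads and against the median change, and 0 to 2 with each library left out. The 6 calls in E16.5 brain became 2 with A-to-G sites, 0 with C-to-T sites, 3 without sites edited in 50% of reads or more, 0 with thinned reads and 0 against the median change, and 0 to 3 with each library left out. The fresh-frozen calls also became 3 at 5 reads per site and 3 at 200 reads per gene, and the E16.5 calls 4 with edgeR. For IgG over untreated in the fresh-frozen libraries, 0 became 1 at 5 reads per site, 3 at 200 reads per gene and 2 with edgeR. At E16.5 the changes of Basp1 and Marcks turned to -0.077 and -0.11 against the median change. With the replicate block the counts of the 10 genes were 2 and 6 in these sets. Leaving out a library gives an arm of 1, whose spread is assumed to be that of the other libraries. The other causes were not tested.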
